A study of Mus musculus with 12 samples.

Results

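Heart was compared with cerebrum in mice that had received only the vehicle. The comparison used 3 heart arrays and 3 cerebrum arrays, which are 6 of the 12 arrays of the study. Of the 35556 transcript clusters on the array (each a set of probes for 1 transcript region), the 21218 with a single gene symbol were compared, and all of these genes were taken, whatever their values. The study asked whether phosphatidylserine (PS), a membrane phospholipid, changes gene expression in mice of a familial dysautonomia (FD) model, an inherited disorder of sensory and autonomic neurons. All 12 arrays carry the strain C57BL/6J and the genotype FDloxP/+ of a humanized knock-in, so the vehicle mice carry that allele as well, and the knocked-in gene was not analysed here. From an age of 4 months, vehicle mice received 100 microliter of medium-chain triglycerides (MCT), by gavage on alternate days, over 3 months, and the other mice were given PS at 200 mg/kg in the same way. The design text speaks of 6 FD mice, whereas the protocol on growth counts 3 FD mice and 3 that are wild-type, so the genotype is taken from the label of each array. The labels call the 3 arrays of a group biological replicates.

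Heart muscle contracts without pause, and its cells are packed with sarcomeres and mitochondria. It draws most of its energy from the oxidation of fatty acids and passes calcium in and out of the sarcoplasmic reticulum at each beat. The cerebrum holds neurons, which signal through synapses and voltage-gated channels and live on glucose, and glia, which wrap axons in myelin and clear transmitter. Brain also makes its own cholesterol, because the blood-brain barrier keeps lipoproteins out. Many enzymes, channels and structural proteins exist as a muscle form and a brain form that are encoded by separate genes, so the organs can be compared family by family. In whole tissue, fewer cells of a type and less RNA per cell cannot be told apart.

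All values are log2 intensities as the authors deposited them, so a difference of 1 is 2-fold. Correlations across transcripts were 0.983 to 0.992 among the heart arrays, 0.994 to 0.997 among the cerebrum arrays and 0.781 to 0.794 between tissues. The median standard deviation of a tested transcript was 0.20 over the heart arrays and 0.10 over the cerebrum arrays. Differences between single arrays of a group were checked with markers of neighbouring tissues. Tnnt2, cardiac troponin T and a marker of cardiomyocytes, read 12.36, 12.38 and 12.48 on the heart arrays. The neuronal nuclear protein Rbfox3 read 10.10, 9.74 and 9.99 on the cerebrum arrays. Of 4 markers of skeletal muscle, Actn3, Myh4 and Myh1 lay between 3.43 and 4.52 on all 6 arrays, and Ckm, which heart muscle also expresses, read 11.48, 11.61 and 11.66 on the heart arrays and 5.07, 5.02 and 5.18 on the cerebrum arrays.

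Some arrays stood apart from the others of their group in such markers. Albumin (Alb), a liver protein, was 3.82, 9.73 and 3.75 on the 3 cerebrum arrays and 3.73, 5.65 and 4.06 on the heart arrays. Both liver markers listed, Alb and Apoa1, were highest on cerebrum array 2, and their summed level (log2) was 5.71, 10.04 and 5.75 over the cerebrum arrays. So were 5 of 5 further liver genes that were chosen after their values were seen, among them Ahsg at 3.40, 6.10 and 3.68 and Fgb at 3.45, 5.42 and 3.47. Heart array 2 was likewise highest of the heart arrays for 2 of 2 and 5 of 5 of these genes, with summed levels of 6.08, 6.79 and 5.84 and of 6.3, 6.77 and 6.26. Cerebrum array 2 was also highest of the cerebrum arrays for 3 of 3 markers of cerebellum, with summed levels of 5.73, 7.65 and 5.53. Of these, the granule cell receptor subunit Gabra6 read 3.52, 5.98 and 3.35. Transthyretin (Ttr), made by the choroid plexus, was 10.82, 11.54 and 5.98 and thus low on cerebrum array 3. On heart array 3 the atrial light chain Myl7 was 4.37, 5.08 and 8.53 over the arrays in order, and its partner Myl4 was 7.90, 7.86 and 9.62. Of 5 atrial markers 3 were highest there, but their summed level was 11.49, 11.65 and 11.34. The 3 adipocyte markers were highest on heart array 1, with Adipoq at 6.46, 3.97 and 4.63 and summed levels of 7.69, 5.92 and 6.28, as was the antibody light chain Igkc, chosen after its values were seen, at 6.98, 4.20 and 4.27. Of all genes, 48 stood at least 2-fold above both other arrays on cerebrum array 2, and 96 stood at least 2-fold below them on heart array 3. Without cerebrum array 2 the count of calls given next would be 8920, and without heart array 3 it would be 10329.

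Most measured genes differed between the organs. In limma, 9610 of 12734 tested transcripts (75.5%) had an adjusted p below 0.05. Heart had the higher level in 4480 (35.2%) and cerebrum in 5130 (40.3%). Counted per gene, with the brightest transcript of each, 76.2% of 11214 tested genes passed, 34.2% with the higher level in heart and 42% in cerebrum. At least 2-fold, 43.2% of genes differed, 18.4% toward heart and 24.7% toward cerebrum, and the groups did not overlap for 80.1% of genes. These shares are the background for every list below and a list with a like share past the threshold is no richer in differences than the array. The balance of directions changed with size. Of transcripts, 42.3% differed at least 2-fold, 2387 (18.7%) toward heart and 2996 (23.5%) toward cerebrum. At 16-fold the counts were 193 and 491, but at 128-fold they were 17 and 7, so cerebrum had more transcripts past 16-fold and heart more past 128-fold. The groups did not overlap for 79.2% of tested transcripts. Of 522 genes with several called transcripts, 22 had transcripts called in opposite directions.

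**Figure D1:**
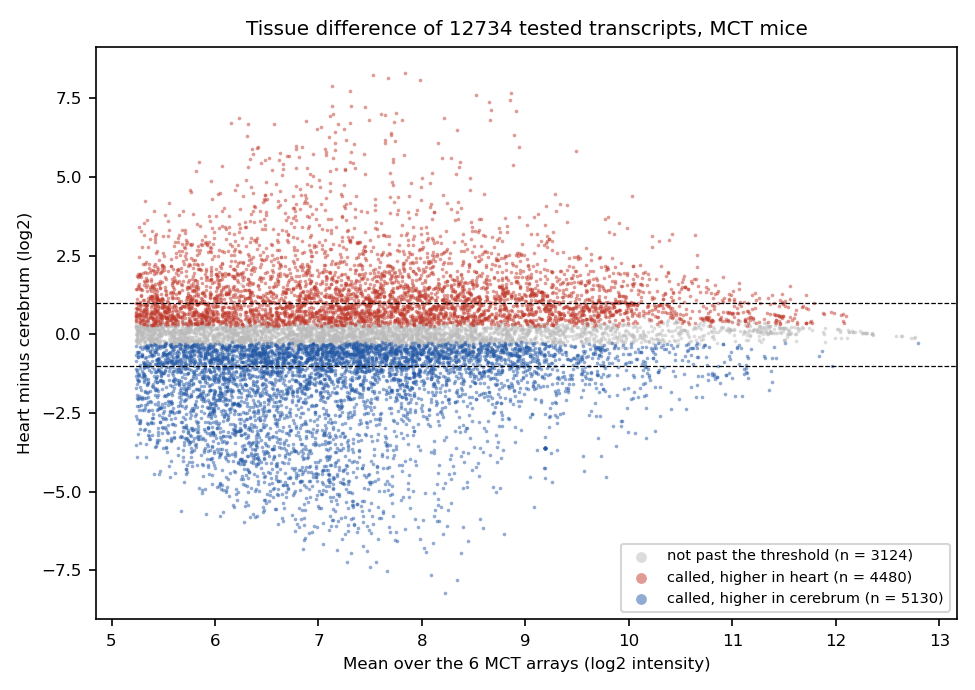
Difference between heart and cerebrum (log2, y axis) against the mean over the 6 MCT arrays (log2 intensity, x axis) for 12734 tested transcripts, coloured by call. Dashed lines mark a 2-fold difference. The 4480 red points lie above 0 and the 5130 blue points below it. The largest differences exceed 8 on both sides, and at the highest means all differences are small.

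The split between the directions depends on how arrays are scaled. As deposited, 46.6% of calls were higher in heart. With the 6 arrays centred on their medians this share was 61%, because the median of all tested transcripts moved up by 0.33, and after quantile normalization it was 54.5%, with a shift of 0.16. At least 2-fold, the shares were 44.3% as deposited, 51.3% after quantile normalization and 57.9% after centring. Small differences are therefore relative to the scale chosen, and the text names below where one changes direction.

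The 15 largest differences toward heart were led by proteins of the contractile machine. Gene models, predicted genes and small RNAs were left out of this ranking, and of that toward cerebrum, by name. Myoz2, which ties calcineurin to the Z-disc of the sarcomere, read 12.06, 12.05 and 11.85 on the 3 heart arrays and 3.66, 3.71 and 3.68 on the 3 cerebrum arrays. That is a difference of 8.30 with a standard error of 0.11 and an adjusted p of 1.66e-09 in limma, the largest of all tested genes. Ankrd1, a stretch-responsive repressor in the nucleus and sarcomere, read 11.78, 11.70 and 11.74 against 3.64, 3.44 and 3.71. Smpx, a small protein of striated muscle, read 11.26, 11.20 and 10.76 against 3.24, 3.39 and 2.94. In each of these genes the arrays of a tissue lay within 0.50 of each other while the tissues lay over 7 apart. The others were Tecrl, a reductase-like protein of the reticulum (7.72), the cardiac actin Actc1 (7.67), the ventricular light chain Myl3 (7.60), myoglobin (Mb, 7.39), the mitochondrial creatine kinase Ckmt2 (7.25), the thin filament nucleator Lmod2 (7.22), the oxidase subunit Cox8b (7.13), cardiac troponin I (Tnni3, 7.11) and the cyclic AMP binding protein Popdc2 (7.02). Myl2, Pln and Cd36 complete the 15. In all but Tnni3 the cerebrum mean lay below 5.23, the mean over the 6 arrays under which transcripts were not tested. Their sizes are therefore approximate, since the arrays measure little below that level.

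Toward cerebrum Snap25, a fusion protein of synaptic vesicles, led. Vsnl1, a neuronal calcium sensor, read 12.27, 12.19 and 12.28 on the cerebrum arrays and 4.19, 4.28 and 4.80 on the heart arrays. Syt1, the calcium sensor of transmitter release, read 11.91, 11.74 and 12.09 against 4.16, 4.17 and 4.44. The sodium channel Scn2a followed with 11.46, 11.24 and 11.61 against 3.68, 3.69 and 4.32, a difference of 7.54 (standard error 0.19, limma adjusted p 5.26e-09). No heart array came within 6 of any cerebrum array for these genes. Next came Elmod1 (7.40), the membrane protein Mal2 (7.23), the brain aldolase Aldoc (6.97), the AMPA receptor partners Cacng3 (6.94) and Cnih2 (6.89), the neuronal enolase Eno2 (6.91), the calcium sensor Hpcal4 (6.87), Fam171b (6.80), the neurofilament Nefl (6.72), the AMPA receptor subunit Gria2 (6.67) and Faim2 (6.65), an inhibitor of death receptor signalling. Here the heart means lay below 5.23 in all 15.

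**Figure D2:**
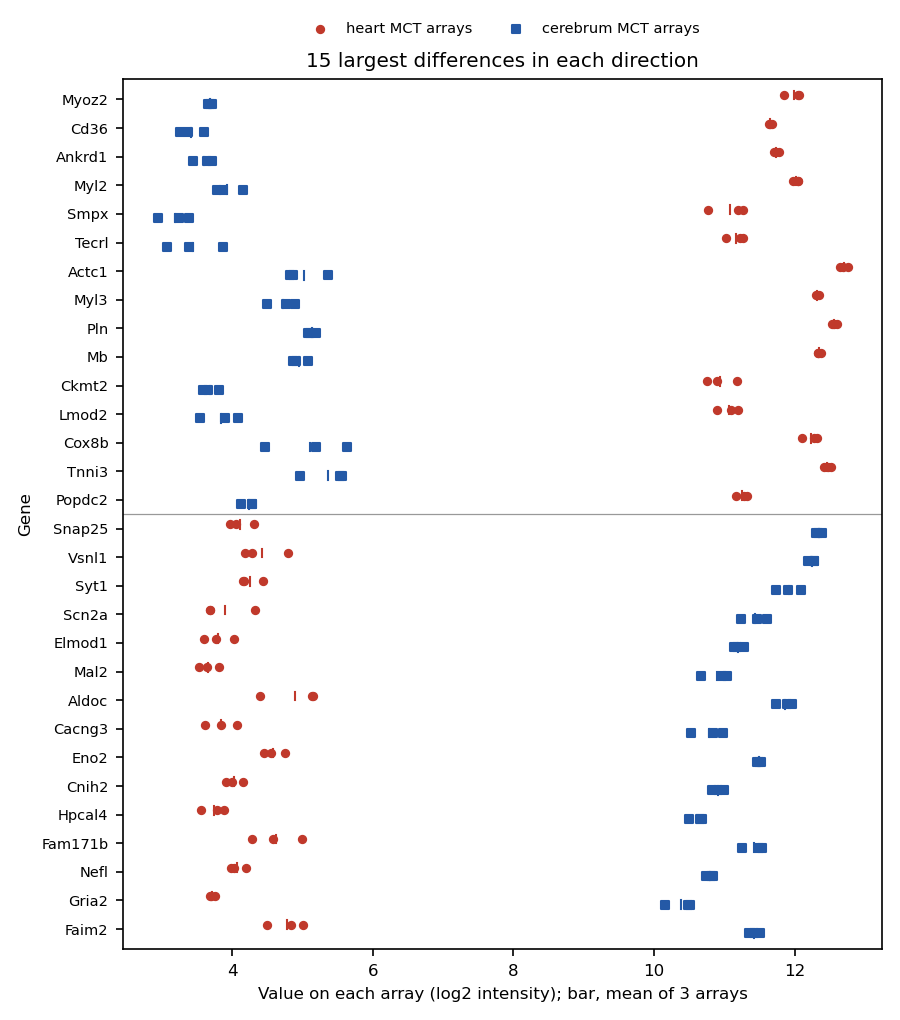
Value on each array (log2 intensity, x axis) of the 15 genes with the largest difference toward heart (top) and toward cerebrum (bottom). Gene models, predicted genes and small RNAs were left out. Circles are heart MCT arrays, squares are cerebrum MCT arrays and bars are means of 3 arrays. For each gene the arrays of a tissue lie together, and the highest array of the lower tissue stays below 6 while every array of the higher tissue is above 10.

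Among sarcomere genes nearly every member was higher in heart. All 23 tested genes of the Z-disc and costamere, the anchors of the contractile filaments, passed in that direction with a median difference of 4.89. Csrp3, a stretch sensor, differed by 6.96, desmin (Des) by 6.87 and Xirp2, an actin binding protein, by 6.70. In the thick filament 8 of 9 passed, including the M-band proteins Myom2 (6.82) and Myom1 (6.78), the myosin binding protein Mybpc3 (6.81), titin (Ttn, 6.43) and the slow myosin Myh7 (5.02). Myl4 alone did not pass (0.58). In the thin filament 10 of 11 were higher in heart, with Tnnc1, the calcium-binding troponin, at 6.82 and Tnnt2 at 5.83. Nebl, a nebulin-like protein of the Z-disc, went the other way and was 0.59 higher in cerebrum, though it did not pass without cerebrum array 2 (adjusted p 0.055), after quantile normalization or after centring (adjusted p 0.06 and 0.21).

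The promoters of the genes with the largest difference toward heart held the recognition sequences of muscle transcription factors more often than promoters at large. RefSeq windows (GRCm38.p6) of 250 bases before and 50 bases after the gene start were searched on both strands, and 123 of the 168 genes at least 16-fold higher in heart had one. A MEF2 site, bound by myocyte enhancer factors, was found in 12 of these 123 (9.76%), against 0.636% of all 27025 genes with a window and 1.12% of 357 genes at least 16-fold higher in cerebrum. A CArG box, bound by serum response factor, was found in 9 (7.32%), against 1.81% of all genes and 0.84% of the cerebrum set. A TATAAA box, which can overlap a MEF2 site, was in 28.5% against 15.7% of all genes, 8.97% of tested genes and 11.2% of the cerebrum set. GGGCGG, the core of the GC box of housekeeping promoters, was in 34.1% of the heart set, 63% of the cerebrum set, 38.2% of all genes and 69.9% of tested genes. These shares are descriptions without a test, and a match says nothing about binding. The genes for these factors varied. Mef2a (0.30) and Mef2d (-0.003) did not pass, Mef2c was 1.60 higher in cerebrum, and the CArG binding factor Srf, named here after its value was seen, was 1.09 higher in heart. The 5 promoters below are shown because each holds 1 such match close to the start of a gene with a heart-weighted level: the MEF2 sites of Myoz2 and Xirp2, and the CArG boxes of the cardiac actin Actc1, the light chain Myl3 and the skeletal actin Acta1. Capitals mark the match, and each line holds the 120 bases just before the gene start.
Myoz2: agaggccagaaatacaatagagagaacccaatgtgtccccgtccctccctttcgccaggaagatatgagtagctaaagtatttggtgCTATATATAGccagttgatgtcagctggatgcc
Xirp2: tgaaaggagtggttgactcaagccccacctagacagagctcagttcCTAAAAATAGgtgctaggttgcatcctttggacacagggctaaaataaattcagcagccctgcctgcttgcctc
Actc1: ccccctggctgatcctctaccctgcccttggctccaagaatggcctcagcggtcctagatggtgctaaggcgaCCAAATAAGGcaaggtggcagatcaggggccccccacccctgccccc
Myl3: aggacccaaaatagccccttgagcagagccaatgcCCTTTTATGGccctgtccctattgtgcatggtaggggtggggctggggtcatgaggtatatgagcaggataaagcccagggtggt
Acta1: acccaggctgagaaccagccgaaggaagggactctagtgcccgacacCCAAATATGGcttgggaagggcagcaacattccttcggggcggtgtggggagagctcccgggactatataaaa

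Those stretches lie at chr3:123034988-123035107, minus strand, for Myoz2, chr2:67445882-67446001, plus strand, for Xirp2, chr2:114052876-114052995, minus strand, for Actc1, chr9:110763558-110763677, plus strand, for Myl3, and chr8:123894776-123894895, minus strand, for Acta1. The MEF2 site of Myoz2 begins 33 bases and that of Xirp2 74 bases before the gene start. The CArG boxes begin 47, 85 and 73 bases before it in Actc1, Myl3 and Acta1. Actc1 read 12.65, 12.68 and 12.75 on the heart arrays and 4.86, 4.83 and 5.37 on the cerebrum arrays. Acta1, the actin of skeletal muscle and a gene of cardiac stress, read 10.69, 10.42 and 9.87 in heart and 6.36, 5.97 and 6.12 in cerebrum. Xirp2 read 9.76, 9.75 and 10.25 against 3.40, 3.03 and 3.24. In all of them the tissues were far apart and the arrays of a tissue close.

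**Figure D3:**
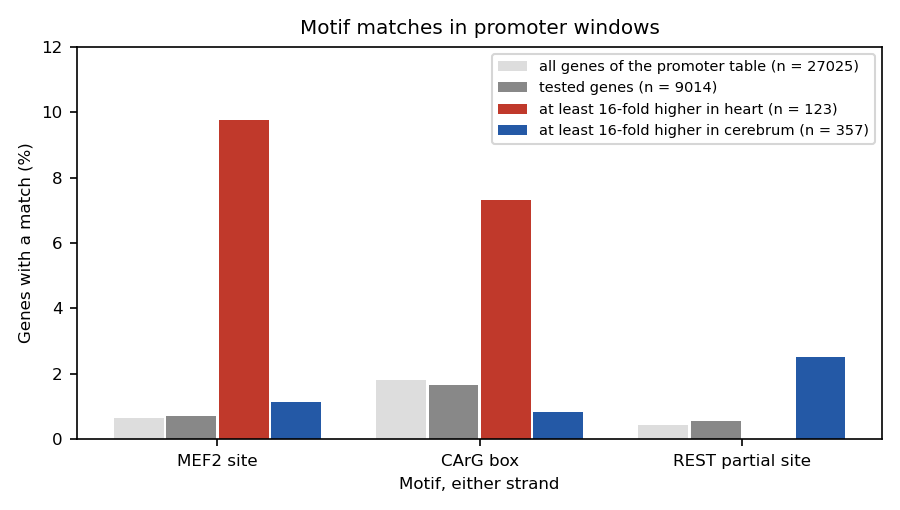
Share of genes (%, y axis) whose promoter window holds a MEF2 site, a CArG box or the partial site of the repressor REST, for all genes, tested genes and the genes at least 16-fold higher in heart or in cerebrum. Bars start at 0 and carry no test; the red bars reach 9.76% and 7.32% for the muscle motifs, and the blue bar is the tallest for the partial REST site at 2.52%.

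Calcium handling genes were mostly higher in heart too. Of 15 tested genes of sarcoplasmic reticulum calcium cycling, 13 were higher in heart. The calcium store protein Casq2 differed by 6.16, its anchor triadin (Trdn) by 5.31, the store regulator Srl by 5.47, Hrc by 5.22 and the junction protein Jph2 by 4.14. The release channel Ryr2 differed less, by 2.61, and was well above the filter in cerebrum, at 8.07, 7.71 and 8.40 against 10.23, 10.47 and 11.30 in heart. The calcium pump Atp2a2 was 12.34 in heart and 11.09 in cerebrum, a difference of 1.25. Fkbp1b, the small protein that steadies Ryr2, was instead 3.25 higher in cerebrum, at 8.27, 8.0 and 8.18 against 4.99, 5.15 and 4.55. The channel subunit Cacna2d1 did not pass (0.07).

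Of 18 tested cardiac ion channel genes, 13 were higher in heart and 4 in cerebrum. Abcc9 and Kcnj8, which together form an ATP-sensitive potassium channel, differed by 4.73 and 2.77. Kcnj5, the acetylcholine-gated channel of the heart, differed by 4.04, and its partner Kcnj3 did not pass (0.13). The delayed rectifier pair Kcnq1 and Kcne1 differed by 3.59 and 2.87. On the other side, the sodium channel subunit Scn4b was 3.75 higher in cerebrum, and the transient outward channels Kcnd2 (1.37) and Kcnd3 (1.14) and the pacemaker channel Hcn2 (1.90) were too. At the intercalated disc, which couples heart cells, desmoplakin (Dsp) differed by 6.35, the desmosome plaque protein Pkp2 by 4.31 and the catenin Ctnna3 by 3.81. The gap junction protein Gja1, which astrocytes also use, differed by only 1.09, and Tjp1 did not pass (-0.10).

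Transcription factors of heart development and metabolism were mostly higher in the adult heart. Of 23 tested, 20 were higher in heart and 3 did not pass. The largest were the chromatin factor Smyd1 (6.04), the T-box factors Tbx20 (5.99) and Tbx5 (5.33), myocardin (Myocd, 5.64), the partner of serum response factor, and Gata6 (5.24) and Gata4 (4.34). Besides Mef2a and Mef2d, Tbx18, an epicardial factor, did not pass (0.03). Their relative Mef2c was not on this list and differed by -1.60, called toward cerebrum. The natriuretic peptides Nppa and Nppb, hormones that lower blood pressure, read 11.34, 11.51 and 10.44 and 10.94, 11.02 and 9.80 on the heart arrays. Both were lowest on heart array 3, the array with the high atrial light chains, whose part in this was not tested. In cerebrum they stayed at 4.20, 4.45 and 4.43 and 3.79, 3.62 and 3.50. Of 11 atrial genes with values, 7 were tested and only Nppa and the potassium channel Kcna5 (0.93) were higher in heart, while Dkk3, a Wnt inhibitor of atria and of neurons, was 3.97 and Stard10 0.52 higher in cerebrum, the latter not past the threshold after centring.

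Genes of oxidative metabolism were higher in heart almost without exception. All 34 tested subunits of respiratory complex I passed in that direction, with a median difference of 1.61 and a range from 0.64 to 2.90 (Ndufs6). All 17 citric acid cycle enzymes passed too, led by the isocitrate dehydrogenase Idh2 (3.65) and ending with Sdha (0.80). Of 16 ATP synthase genes 15 passed, and the inhibitor of the synthase, Atpif1, did not (0.11). Of 22 genes of the mitochondrial ribosome 21 passed, with a median of 1.28, and Mrps5 did not (0.18). The background share higher in heart was 34.2%. These differences were smaller than those of the sarcomere, and cerebrum also had these genes well above the filter. Ndufs6 read 10.85, 10.61 and 10.48 in heart and 7.77, 7.87 and 7.60 in cerebrum.

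Fatty acid oxidation showed larger steps. Of 27 tested genes 26 were higher in heart, with a median difference of 3.19. Lipoprotein lipase (Lpl), which frees fatty acids from blood lipids, read 11.39, 11.51 and 11.66 against 7.15, 7.03 and 6.97. The carnitine enzyme Cpt2 differed by 4.19, and the dehydrogenases Acadl and Acads differed by 4.06 and 4.06. The single exception on this list was Cpt1c, the brain form of carnitine palmitoyltransferase, at 8.79, 8.63 and 8.68 in cerebrum and 5.03, 5.13 and 5.04 in heart, a difference of 3.63. Its relative Cpt1a, which admits fatty acids to mitochondria, was 1.09 higher in heart. Long-chain acyl-CoA synthetases, a family kept apart from this list, were higher in cerebrum in all 3 tested members, with a median of 1.88. The ketone enzymes Oxct1, Bdh1 and Acat1 were 1.54, 1.62 and 1.93 higher in heart.

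Glycolytic genes were called in both directions, often as paralogs, that is, related genes for the same step. Of 19 tested genes 7 were higher in heart, 5 higher in cerebrum and 7 did not pass, and the median difference was 0.01. With arrays centred on their medians 11 were higher in heart and 5 in cerebrum, with a median of 0.35 toward heart. Eno3, the muscle enolase, read 11.87, 11.99 and 11.91 on the heart arrays and 6.13, 6.06 and 5.69 on the cerebrum arrays. Eno2, the neuronal enolase, read 4.55, 4.75 and 4.45 on the heart arrays and 11.52, 11.46 and 11.49 on the cerebrum arrays. The enolases thus exchanged places almost symmetrically, by 5.96 and 6.91. The mutases did so too, with the muscle form Pgam2 4.97 higher in heart and Pgam1 1.69 higher in cerebrum. Aldoa, the main aldolase of both organs, differed by 0.01, while Aldoc was 6.97 higher in cerebrum. Hexokinase Hk2 was 4.06 higher in heart, with heart array 3 above the others (7.98, 8.15 and 9.12), and Hk1 did not pass (-0.39). Of phosphofructokinases, Pfkm was 0.75 higher in heart, Pfkp 2.32 higher in cerebrum and Pfkl did not pass. The trunk enzymes Gapdh (-0.05), Pgk1 (0.13), Tpi1 (0.22) and Pkm (-0.15) did not pass either.

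Sugar entry and storage divided along the same lines. The insulin-responsive transporter Slc2a4 read 10.25, 10.43 and 10.79 in heart and 5.50, 5.57 and 5.48 in cerebrum. The neuronal transporter Slc2a3 read 9.27, 9.20 and 9.59 in cerebrum and 5.14, 5.48 and 5.38 in heart, and Slc2a1, the transporter of the blood-brain barrier, was 1.69 higher in cerebrum. Muscle glycogen phosphorylase Pygm and its brain form Pygb were both higher in heart, by 3.58 and 1.18. Ppp1r3a, which binds phosphatase to glycogen, differed by 5.75. Among pyruvate dehydrogenase kinases, which close the entry of sugar carbon into the citric acid cycle, Pdk4 was 3.48 higher in heart and Pdk3 3.12 higher in cerebrum. Pyruvate carboxylase (Pcx) was 0.95 higher in cerebrum.

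Cytochrome oxidase, the last enzyme of the respiratory chain, showed the same exchange inside a complex that was otherwise higher in heart. The muscle subunits Cox8b, Cox7a1 and Cox6a2 differed by 7.13, 6.32 and 5.39, the 3 largest of 23 tested genes of complexes III and IV. Their ubiquitous partners Cox8a and Cox6a1 were the only members higher in cerebrum, by 0.77 and 1.33, whereas Cox7a2 was 0.82 higher in heart. Cox6a2 read 11.52, 11.54 and 11.67 on the heart arrays and 5.97, 6.42 and 6.17 on the cerebrum arrays, and Cox6a1 read 8.89, 8.80 and 8.45 and 10.21, 10.10 and 9.81. Neither pair of groups overlapped. Creatine kinases, which buffer ATP, exchanged as well. Ckm read 11.48, 11.61 and 11.66 in heart and 5.07, 5.02 and 5.18 in cerebrum, and the brain form Ckb read 8.41, 8.51 and 8.64 and 11.80, 11.96 and 11.67. In mitochondria, Ckmt2 was 7.25 higher in heart and Ckmt1 4.53 higher in cerebrum. Of the ADP/ATP carriers, Slc25a4 was 0.91 higher in heart and Slc25a5 did not pass (-0.06), though with the arrays centred on their medians it was called 0.27 higher in heart.

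Of 46 families compared in this way 45 had several tested members, and 26 had members called in both directions. Of all tested genes 34.2% were called higher in heart and 42% in cerebrum, so sets of unrelated genes would often hold both directions too. Whether 26 exceeds what such sets give was not tested. The fatty acid binding proteins Fabp3 and Fabp4 were 3.17 and 6.99 higher in heart and Fabp7, of radial glia and astrocytes, 4.06 higher in cerebrum. The sodium-calcium exchangers split into Slc8a1 (1.82 higher in heart) and Slc8a2 and Slc8a3 (3.39 and 2.12 higher in cerebrum). Junctophilins, which hold membrane junctions together, split into Jph2 in heart and Jph3 (3.23) and Jph4 (2.19) in cerebrum. The calcium kinases Camk2a and Camk2b were 4.69 and 4.24 higher in cerebrum, and the cardiac form Camk2d was 0.56 higher in heart, with 9.98 against 9.41. After quantile normalization and after centring Camk2d kept that direction. Plasma membrane calcium pumps made a family in 1 direction only: Atp2b1, Atp2b2, Atp2b3 and Atp2b4 were all higher in cerebrum, by 2.60, 5.51, 4.29 and 2.71. Tubulins divided into Tuba8 (3.03) and Tubb6 (1.52), higher in heart, and Tuba1a (2.05), Tubb2b (3.69) and Tubb4a (6.49), higher in cerebrum.

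**Figure D4:**
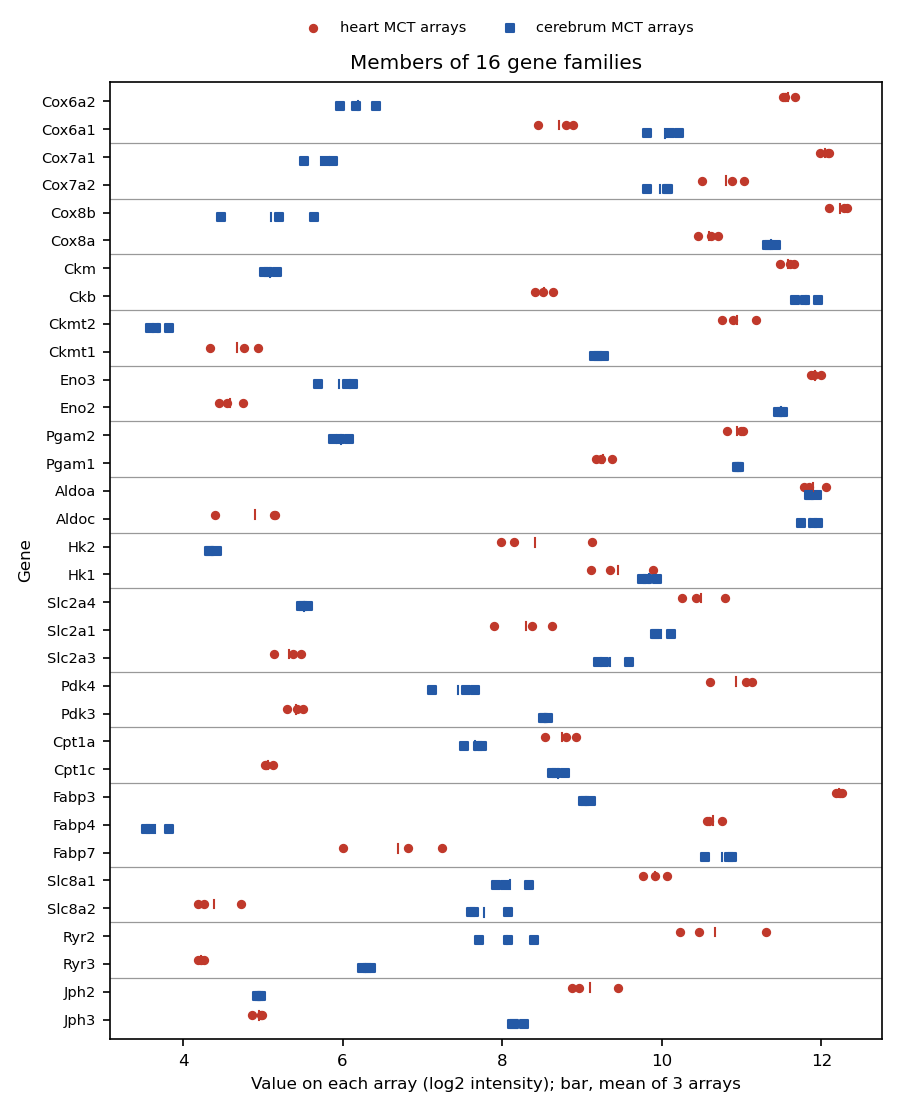
Value on each array (log2 intensity, x axis) for members of 16 gene families, with families divided by lines. Circles are heart MCT arrays, squares cerebrum MCT arrays and bars means of 3 arrays. In the enolases, both kinds of creatine kinase and the phosphoglycerate mutases the order of the tissues turns over between members, while Aldoa and Hk1 lie together.

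Lipid synthesis ran opposite to lipid oxidation. Of 19 tested genes of cholesterol synthesis 18 were higher in cerebrum, with a median difference of 1.10, and only the isomerase Ebp was higher in heart (0.29), which did not pass without heart array 2 or cerebrum array 1 or 3 (adjusted p 0.08 to 0.13). Msmo1 (2.36), Lss (2.30), the regulator Srebf2 (2.19), Idi1 (2.03) and Hmgcs1 (1.98) followed Sqle (4.03), the epoxidase of the pathway. Cyp46a1, the neuronal enzyme that turns cholesterol into a form able to leave the brain, read 9.82, 9.51 and 9.89 in cerebrum and 5.54, 5.55 and 5.41 in heart. Of 15 tested genes of fatty acid synthesis and desaturation 13 were higher in cerebrum. The desaturase Scd2 read 12.06, 12.04 and 12.04 against 7.15, 7.85 and 7.56, and the elongases Elovl4 and Elovl6 differed by 4.73 and 3.51. Acetyl-CoA carboxylase was a further exchanged pair. Acaca, the form for synthesis, named after its value was seen, was 1.75 higher in cerebrum, and Acacb, whose product holds back fatty acid entry into mitochondria, was 4.07 higher in heart. The enzymes that make phosphatidylserine, the treatment of the other mice, showed no difference past the threshold: Ptdss1 differed by 0.09 and Ptdss2 by -0.19. Pisd, which turns it into phosphatidylethanolamine, differed by 0.12.

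Neuronal genes were higher in cerebrum without exception among the tested members of most lists. This held for 18 of 18 genes of vesicle release, 17 of 17 of the postsynaptic density, 16 of 16 of glutamate receptors and transport, 14 of 14 of the GABA system and 11 of 11 calcium channels of neurons. The background share higher in cerebrum was 42%. Many of these genes lay below the filter in heart, where only a higher cerebrum level lets a gene be tested. In the lists just named, however, every member with a value was tested. The median difference was 5.63 for the GABA system and 3.78 for the calcium channels. Among vesicle proteins, synapsin Syn1 read 10.53, 10.30 and 10.71 against 4.37, 4.49 and 4.43, complexin Cplx1 11.11, 11.10 and 11.16 against 5.23, 5.12 and 5.18 and synaptophysin (Syp) 10.49, 10.39 and 10.72 against 4.80, 4.37 and 4.87. The GABA-making enzyme Gad2 differed by 5.86, and the receptor subunits Gabra4, Gabra2 and Gabrb2 by 6.10, 6.05 and 6.04. Of glutamate receptors, Gria1 differed by 6.32 and the metabotropic Grm3 by 6.09. Scaffold genes of the postsynaptic density ranged from 1.02 to 5.81, the latter in Dlg2, and Dlgap1 (5.79) and Dlg4 (5.43) were close to it.

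A few neuronal genes, named after their values were seen, were well above the filter in heart too. The transporter Slc17a7, which loads glutamate into vesicles, read 7.81, 7.47 and 8.0 in heart against 10.76, 10.41 and 10.93 in cerebrum. The growth cone protein Stmn2 read 8.29, 8.20 and 7.68 in heart, and the opioid precursor Penk 8.72, 8.73 and 8.71. Their cerebrum values were 11.41, 11.30 and 11.35 and 11.80, 11.81 and 11.77, so the groups did not overlap. Rab3a and Vamp2, of vesicle traffic, had the smallest differences of the release genes, 1.85 and 1.98, with heart means of 8.49 and 9.71. Neuropeptides and interneuron markers were higher in cerebrum in all 14 tested, of 17 with a value. Among them were somatostatin (Sst, 5.16), Tac1 (5.63), cholecystokinin (Cck, 5.53) and calbindin (Calb1, 6.48).

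Markers of brain regions differed in how clearly they separated the tissues. Cortical genes were higher in cerebrum in 13 of 14, including Tbr1 (5.43), of deep layer neurons, and Neurod6 (4.46), and Cux1 did not pass (0.22). All 11 striatal genes were higher, with the phosphodiesterase Pde10a at 10.10, 10.24 and 10.39 and the dopamine receptor Drd2 at 9.49, 9.69 and 9.53. Of 10 hippocampal markers 5 were tested. Dsp, also a desmosome protein, was higher in heart, and so were Prox1 (2.35) and Zbtb20 (1.09). Wfs1 (0.44) and C1ql2 (0.34) were higher in cerebrum, 1 of them after quantile normalization and 0 after centring, where limma still called 3 in heart. C1ql2 also did not pass without heart array 2 or 3 or without any 1 cerebrum array (limma adjusted p 0.055 to 0.151). Wfs1 did not pass without heart array 1 or 2 or cerebrum array 2 or 3 (limma adjusted p 0.057 to 0.135). Of 16 genes of thalamus, hypothalamus and cerebellum, 9 were tested and 6 were higher in cerebrum, led by Zic1 (3.92) and Zic2 (3.90). Choroid plexus genes varied between the cerebrum arrays, as given above for Ttr. Ttr remained 4.69 higher in cerebrum over all arrays, with a standard deviation of 3.02 in cerebrum.

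Glia were represented by myelin and astrocyte genes. Of 13 tested myelin and oligodendrocyte genes all were higher in cerebrum, with Gjc3 (4.97), Ermn (4.60) and Cldn11 (4.59) the largest and a median of 3.85. Of 7 tested markers of oligodendrocyte precursors 4 were higher in cerebrum, Ptprz1 (5.81), Bcas1 (3.59), Lhfpl3 (3.32) and Gpr17 (1.53). Those that fibroblasts or mural cells share did not pass: Pdgfra differed by -0.07, Cspg4 by 0.45 and Vcan by 0.15. Of 15 astrocyte genes 14 were higher in cerebrum, including Slc1a3 (5.18), Gpr37l1 (5.15) and Gfap (4.02), and Gja1 was higher in heart as described. Microglial markers showed smaller steps. Tmem119 read 7.11, 7.06 and 7.18 in cerebrum and 5.13, 5.15 and 5.77 in heart, Cx3cr1 differed by 1.70, Trem2 did not pass (-0.07) and Olfml3 was 1.21 higher in heart.

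Vessel markers went in both directions. Of 14 genes that all endothelium expresses 13 were higher in heart, with a median difference of 2.09. Kdr, the receptor for vascular growth factor, read 8.41, 8.92 and 9.0 against 5.35, 5.36 and 5.70, and the junction protein Cdh5 9.33, 9.63 and 9.87 against 6.49, 6.36 and 6.98. Cldn5, the tight junction protein that brain endothelium carries in excess, did not pass, at 8.20, 8.07 and 7.73 and 7.90, 7.65 and 7.93. Genes of the blood-brain barrier went toward cerebrum in 8 of 11: the lipid transporter Mfsd2a by 4.30, the anion transporters Slco1a4 and Slco1c1 by 4.06 and 3.89. The other 3 were the lactate transporter Slc16a1 (2.0) and the efflux pump Abcg2 (1.25), both higher in heart, and Abcb1a, which did not pass (0.03). Heart capillary genes went the other way, with Fabp4 at 6.99, the glycerol channel Aqp7 at 5.61, the homeobox factor Meox2 at 4.74 and Gpihbp1, the anchor of lipoprotein lipase, at 4.17.

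Matrix genes were mostly higher in heart, apart from those of brain matrix. All 11 tested basement membrane genes were higher in heart, from Hspg2 (3.68) to Col4a1 (1.34). Of 15 fibroblast and interstitial matrix genes 11 were higher in heart, led by dermatopontin (Dpt, 6.31), lumican (Lum, 4.59) and decorin (Dcn, 4.10). Sparc (-0.05), Fn1 (0.51) and Col6a1 (0.03) did not pass. The matrix of brain, perineuronal nets included, went toward cerebrum in 8 of 9, with Ptprz1 at 5.81, brevican (Bcan) at 5.08 and Tnr at 4.25. Immune genes added to the heart side. The class II antigen presentation genes H2-Aa and H2-Ab1 read 9.15, 8.46 and 8.70 and 8.82, 8.25 and 8.71 in heart, against 5.30, 4.82 and 5.0 and 4.79, 4.80 and 5.30 in cerebrum. Of 15 genes of tissue macrophages and other immune cells with a value, only 4 reached the filter and were tested. These 4 were higher in heart as well, namely F13a1 (3.89), Lyz2 (3.88), Lyve1 (2.82) and Mrc1 (2.78). The red cell enzyme Alas2 read 9.88, 10.34 and 9.54 in heart and 6.64, 5.98 and 6.20 in cerebrum. The part of blood or fat in these differences was not tested.

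Splicing regulators, which give each organ its own protein isoforms, split into muscle and brain sets. Of 29 tested, 6 were higher in heart and 19 in cerebrum. Rbm20, the regulator of titin splicing, read 8.19, 8.46 and 9.15 in heart and 4.72, 4.82 and 4.73 in cerebrum, and Rbpms, Rbpms2 and Rbm24 differed by 5.13, 3.74 and 2.43. On the brain side were Celf4 (5.61), Celf5 (4.44), Celf3 (4.40), Elavl4 (4.17) and Nova1 (3.65). Ptbp2, the neuronal polypyrimidine tract protein, was 1.66 higher in cerebrum, and its ubiquitous relative Ptbp1 did not pass (0.25). Celf1, Elavl1 and Qk did not pass either.

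REST is the repressor that keeps neuronal genes silent outside the nervous system. Its gene, Rest, read 6.45, 6.93 and 7.15 on the heart arrays and 5.08, 5.20 and 4.96 on the cerebrum arrays, a difference of 1.76. Of 10 tested genes of REST and its cofactors, Rest, the phosphatase Ctdsp1 (1.66) and Rcor3 (1.33) were higher in heart, and the histone methyltransferase Ehmt2 (1.13) and the demethylase Kdm1a (0.63) higher in cerebrum. The other 5, Rcor1 (0.11), Rcor2 (-0.23), Sin3a (-0.12), Hdac1 (0.22) and Hdac2 (-0.21), did not pass. With arrays centred on their medians 5 were higher in heart and 2 in cerebrum. TTCAGCACC, the left part of the REST recognition sequence, was present in 9 of 357 promoter windows of genes at least 16-fold higher in cerebrum (2.52%). It was in 0 of 123 windows of genes at least 16-fold higher in heart, in 0.433% of all windows and in 0.555% of those of tested genes. At such low shares 123 windows are too few for 0 to stand apart. Among genes at least 2-fold higher it was in 4 of 1648 windows for heart (0.243%) and 25 of 2161 for cerebrum (1.16%). These shares carry no test. The promoter of synapsin is shown because it holds this partial site in capitals, beginning 232 bases before the gene start. The line gives the bases from 250 to 131 before it, at chrX:20921049-20921168, minus strand.
Syn1: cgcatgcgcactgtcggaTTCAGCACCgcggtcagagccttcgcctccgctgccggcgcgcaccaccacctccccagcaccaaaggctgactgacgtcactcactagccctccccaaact

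Of 24 tested genes of cyclic nucleotide and G protein signalling, 17 were higher in cerebrum and 4 in heart, and several receptor and enzyme families had a cardiac member. Of muscarinic receptors, Chrm2, which slows the heart, was 2.21 higher in heart (10.46, 10.72 and 10.88 against 8.51, 8.37 and 8.56). Chrm1, Chrm3 and Chrm4 were 3.27, 3.69 and 2.51 higher in cerebrum. Of 7 tested adenylyl cyclases, Adcy6 and Adcy4 were 2.08 and 1.86 higher in heart and 5 were higher in cerebrum. These were Adcy1 (4.46), Adcy2 (4.92), Adcy8 (2.55), Adcy5 (1.00) and Adcy9 (0.69). The phosphodiesterase Pde3a was 4.10 higher in heart, and Pde1b and Pde10a were 4.60 and 5.07 higher in cerebrum. Gnal, a G protein subunit of striatum, read 10.12 ± 0.11 in cerebrum and 3.59 ± 0.12 in heart (mean ± SD, n = 3). Neurotrophin receptors Ntrk2 and Ntrk3 were 5.51 and 3.98 higher in cerebrum, and neurturin (Nrtn), a survival factor for parasympathetic neurons, was 1.75 higher in heart. Insulin receptor (Insr), Vegfb and Vegfa were 1.58, 1.86 and 1.51 higher in heart, whereas the intracellular growth factor relatives Fgf12 and Fgf14 were 5.33 and 2.93 higher in cerebrum.

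Activity-dependent genes were higher in cerebrum in 12 of 16 tested, led by Npas4 (3.25), Nr4a2 (2.94), Egr3 (2.44) and Egr1 (2.29). Jun and Btg2 were 0.57 and 1.23 higher in heart, and Jun did not pass without cerebrum array 1 or 2 (adjusted p 0.066 and 0.054). Clock genes passed in 9 of 16, with 8 higher in cerebrum. Npas2, the brain relative of Clock, was 2.77 higher in cerebrum, and Clock itself differed by -0.19. Glucocorticoid receptor Nr3c1 differed by -0.01 (called 0.33 higher in heart with the arrays centred), and the list of it and its targets divided, with 4 of 15 toward heart, 4 toward cerebrum and 7 not past the threshold. Imprinted genes, expressed from a single parental copy, were higher in cerebrum in 13 of 15 tested. Nap1l5 (5.50), the noncoding RNA Meg3 (4.77), Peg3 (4.65) and Nnat (4.27) were the largest, and Cdkn1c and Grb10 were 1.06 and 0.73 higher in heart.

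Ribosomal and proteasome genes differed by small amounts. Of 23 cytosolic ribosomal proteins 16 were higher in heart, with a median of 0.60, and Rpl3 was 1.28 higher in cerebrum. Striated muscle is known for a form of its own of that protein. Of 26 proteasome genes 18 were higher in heart, with a median of 0.48. After quantile normalization and after centring both medians stayed positive. Small heat shock proteins of muscle stood out from the other chaperones: Hspb1, Hspb8 and Hspb6 were 4.80, 4.46 and 4.41 higher in heart. Hsp90aa1 and Hspa12a were 1.92 and 2.84 higher in cerebrum, and the constitutive Hspa8 did not pass (-0.11). Antioxidant enzymes were higher in heart in 14 of 20, with Nqo1 at 3.96 and catalase (Cat) at 1.88, while Gclc, which limits glutathione synthesis, was 1.70 higher in cerebrum. Genes often used as references were not uniform. Gapdh, Eef2 (-0.09), Polr2a (-0.05) and Hprt (-0.38) did not pass, but Actb and Ywhaz were 1.01 and 1.96 higher in cerebrum and Rplp0 and B2m 1.49 and 1.03 higher in heart. With the arrays centred on their medians, Gapdh was called 0.28 higher in heart.

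**Figure D5:**
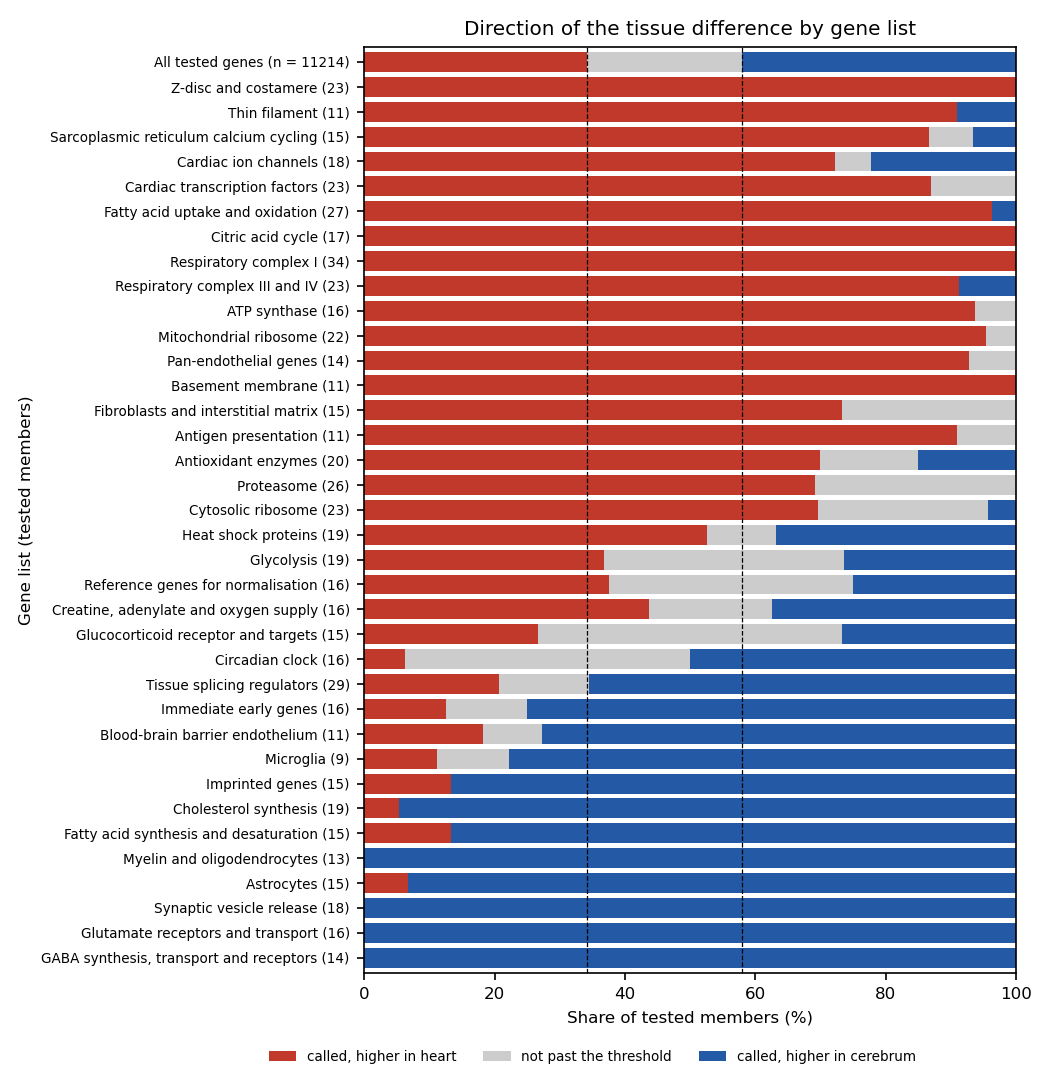
Share of tested members (%, x axis) called higher in heart (red), called higher in cerebrum (blue) or not past the threshold (grey) for 36 gene lists, with the number of tested members in brackets. Dashed lines continue the shares of all 11214 tested genes (34.2% and 42% called). Z-disc, complex I and citric acid cycle genes are wholly red, synapse and myelin genes wholly blue, and glycolysis and the glucocorticoid list hold more grey than all genes do.

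MicroRNA precursors, named in part after their values were seen, were near the floor of this array. Of 295 microRNA genes with a value, 37 reached the filter. From a list of 26 precursors only 2 were tested, and calls of the other microRNA genes are not described here. Of these 2 only Mir9-2 was called, at 7.25, 7.07 and 7.29 in cerebrum and 3.31, 3.42 and 3.14 in heart, 3.91 apart. Mir137 (5.47, 5.18 and 5.49 against 2.82, 3.50 and 3.16) and Mir128-1 (5.87, 5.43 and 5.55 against 3.89, 3.82 and 3.89) lay below the filter and were not tested, although no heart array reached a cerebrum array. The cardiac precursors Mir208a (0.69) and Mir1a-2 (0.32) were not tested either, with means of 3.68 and 2.72 in heart. Such probe sets can read the precursor and its host transcript, so no mature microRNA level is given. The mature products of the 3 brain precursors are shown from RefSeq with the seed, bases 2 to 8, in capitals. They share no seed.
miR-9-5p: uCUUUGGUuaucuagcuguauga
miR-137-3p: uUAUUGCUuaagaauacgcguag
miR-128-3p: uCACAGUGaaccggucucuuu

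On GRCm38.p6 these mature sequences lie at chr13:83738821-83738843, plus strand, for miR-9-5p, chr3:118433901-118433923, plus strand, for miR-137-3p, and chr1:128202404-128202424, plus strand, for miR-128-3p.

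The filter on the mean hid some genes of a single organ. Of the 8484 transcripts not tested, 463 had a heart mean and 364 a cerebrum mean at or above 5.23. The largest toward heart was Ms4a4d, at 7.41, 7.46 and 7.08 against 3.06, 2.81 and 2.97. It was followed by the macrophage products Retnla (3.86) and Vsig4 (3.06), the platelet chemokine Ppbp (3.29) and the microfibril protein Mfap5 (3.22). Toward cerebrum, Ankrd34c read 7.08, 6.85 and 6.92 against 2.93, 3.72 and 3.19, the elongase Elovl2 differed by -3.41, the contactin Cntn6 by -3.35, the sulfotransferase Ndst4 by -3.34 and the protocadherin Pcdhb2 by -3.34. Families grouped by name were chosen after values were seen. Beside them, 42% of all tested genes were higher in cerebrum and 34.2% in heart. Of genes named Kcn, for potassium channels and their partners, 45 of 62 were higher in cerebrum and 12 in heart. Protocadherins were higher in cerebrum in 17 of 19. Among genes whose names begin with Rab, most of them Rab proteins of vesicle traffic, 34 of 56 were higher in cerebrum and 10 in heart. Zinc finger genes named Zfp were higher in cerebrum in 120 of 249 and in heart in 40. Mitochondrial carriers named Slc25 went toward heart in 20 of 36 and toward cerebrum in 9.

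The same contrast was fitted in the PS mice, on 6 arrays not used so far. Of 9610 transcripts called in MCT mice 97.3% had the same sign in PS mice, and of 9448 tested there 88.5% were called in the same direction, where 75.9% of 12732 tested transcripts were called. In the opposite direction 42 were called. Of the 5383 that differed at least 2-fold, 99.8% kept their sign. An exception was Drd2, named here for its change, which differed by 3.64 toward cerebrum in MCT mice and by 0.05 toward heart in PS mice, a change of 3.69 that did not pass (adjusted p 0.0837, limma). Of the 11 striatal genes 9 kept their sign, with a median toward cerebrum of 3.64 in MCT mice and 1.84 in PS mice. Myoz2 differed by 8.35 in PS mice and 8.30 in MCT mice, and Scn2a by 6.91 and 7.54. Eno3 and Eno2 differed by 6.55 and 6.26 in opposite directions, Ckm and Ckb by 6.40 and 3.09. In a test of the change of the tissue difference over all 12 arrays, 194 of 12731 transcripts (1.52%) passed. That count depended on single libraries. It was 72 without heart MCT array 1, 88 without heart MCT array 2 and 1628 without heart MCT array 3, and 3, 41 and 117 without cerebrum MCT array 1, 2 or 3. It was 57 and 64 without heart PS array 2 or 3, and 38, 54 and 366 without cerebrum PS array 1, 2 or 3.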

How the data were processed

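RNA was measured on 12 arrays, each 1 sample of heart or cerebrum. The authors deposited log2 expression values per transcript cluster in the series matrix, which were used as they stand. The submitters' processing notes name Affymetrix Expression Console. Their background correction and normalization are not stated in the labels, array medians were 4.89 to 5.0, and the annotation of the platform named the genes. No scanner intensities were used. A transcript was tested when its mean over the 6 vehicle arrays reached the 40th percentile, 5.23. limma 3.58.1 in R 4.3.3 (lmFit, eBayes) compared 3 with 3 arrays, and p-values were adjusted by the Benjamini-Hochberg method over 12734 transcripts, with a threshold of 0.05. P-values measure the spread between 3 samples per tissue, and the number of arrays limits their precision. The same contrast was fitted in PS mice, and its change between treatments over all 12 arrays. On simulated data for this comparison 39%, 85% and 99.5% of changed transcripts were recovered at differences of 0.5, 1 and 2 (log2). Of the calls among 12734 transcripts 4.08% were false. Only 200 transcripts were changed at each size, and both tissues were given the same spread. In the data 75.5% of transcripts were called and the heart arrays spread more, so these rates were not shown to hold there. A gene is given by its transcript with the highest mean. Named genes are the 15 largest differences per direction and members of gene lists and families. Of lists with over 12 measured members, the 6 largest per direction, those against the majority and those not past the threshold were named. The 5 largest per direction under the filter and the 5 per direction with the lowest p for the change between treatments were added. Gene models, predicted genes and small RNAs were left out of these rankings by name. The gene targeted by the knock-in is not reported here. Members and lists were chosen with earlier results of these data known. Alternatives covered scaling, filter, variance model, single arrays left out and a replicate block.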

Additional observations from a re-analysis of the deposited data

Results flagged for a closer look

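In a test of the change in the tissue difference between treatments (limma over all 12 arrays, Benjamini-Hochberg adjustment), genes named here passed a threshold of 0.05. Values are the heart minus cerebrum difference in PS mice less that in MCT mice (log2). The genes given first are the 5 in each direction with the lowest p, which is not an order of size. Toward heart in PS mice, Ecel1, a peptidase of neurons, changed by 2.62 (adjusted p 0.00304) and Peg10, an imprinted gene, by 2.27. Nexn, an actin binding protein of the Z-disc, changed by 2.14, Baiap2, of dendritic spines, by 1.42, and Mamdc2 by 1.17. Toward cerebrum were the mitochondrial ribosomal gene Mrps21 (-1.48, adjusted p 0.0116), B3galt2 (-1.46), neuropeptide Y (Npy, -1.18), Pcsk1n (-1.10) and the integrin Itgb6 (-1.02). Of genes described above, Slc16a1 changed by 0.94, Grb10 changed by 1.37, Lpl by 0.94, Eno2 by 0.64 and Rbfox3 by -0.92. The tissue difference in MCT mice was 3.29 toward cerebrum for Ecel1 and 4.35 toward heart for Nexn. The count of such genes moved with single libraries, as given with it.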

How the results depend on the processing

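The count of transcripts past the threshold stayed between 8275 and 13194 under all alternatives but a filter at the 60th percentile of the mean, which tested fewer transcripts and gave 6396, or 3415 at least 2-fold. Without a single array the counts were 8648 to 10329, or 5289 to 5586 at least 2-fold. Each alternative fit called 86.7% to 99.95% of the 9610 transcripts in the same direction where it tested them, and 0 in the opposite one. The count of changes between treatments was 3 to 1628 without a single array. Of 285 named genes called, 279 were called in the same direction under every alternative that tested them, and 34 of the 48 named genes not called were called under at least 1. Called in the other direction, or with a turned sign, were Gapdh (0.28), Nr3c1 (0.33), Mamdc2 (0.30) and Slc25a5 (0.27) with arrays centred on their medians, and Pdgfra (0.15) and Tbx18 (-0.22) with array weights, and the cause was not tested. The median of the adrenergic, muscarinic and adenosine receptor genes, -1.92 over 6 tested, was 1.17 with the 60th percentile filter, which left fewer genes. A fit with the replicate number as a block gave 9709 calls, or 5386 at least 2-fold, and 143 changes between treatments. Deviations of equally numbered heart and cerebrum arrays correlated at 0.115, 0.099 and 0.285. Heart arrays 2 and 3 correlated best with the cerebrum array of equal number, and heart array 1 with cerebrum array 2 (0.187). With 3 arrays per group this cannot settle whether they are pairs. The labels do not say that equal numbers are 1 mouse, so the numbers were not taken as pairs. Apart from these alternatives, limma was also used to test against a 2-fold difference itself. There 3925 transcripts passed, against the 5383 called and at least 2-fold. Genes near the floor of the arrays, about 3 to 5 on this scale, limit how large a difference can be read.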

Other observations

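Transcript clusters with several gene symbols or none were tested separately. Of 4271 such clusters, 2393 (56%) passed an adjusted p of 0.05 in limma.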
